A study of Mus musculus with 24 samples.

Results

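Mrpl58 was the only gene with a symbol starting with Mrpl or Mrps and a digit that had 1 RPKM or more in 1 or both RNA libraries, out of 10436 genes that reached this level and 22371 in the RNA tables. RPKM is a read number scaled to the length of the gene and the size of the library. The name table held 78 such symbols without those of pseudogenes. The RNA level of the other 77 was not analysed here, so none of them was found to be below 1 RPKM, and the RNA results describe Mrpl58 and not the whole set of mitochondrial ribosomal proteins. For 69 of the 78 genes, Mrpl58 among them, a promoter window was at hand, and the chromatin at their starts was compared.

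Mitochondrial ribosomes translate the few proteins encoded by mitochondrial DNA, which are subunits of the respiratory chain and of ATP synthase. Their proteins are encoded in the nucleus and imported. Mrpl58, also known as Ict1, is a protein of the large subunit that releases unfinished chains from stalled mitochondrial ribosomes by cutting the bond to the tRNA without reading a stop codon, a role known from human cells. It is related to bacterial release factors.

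The vitamin C group was mouse bone marrow cells immortalized with HOXA9, expressing IDH1 R132H from a vector and given vitamin C to 0.345 mM at 0, 24 and 48 h before harvest at 72 h. The untreated group was the same HOXA9 IDH1 R132H cells without vitamin C, and the labels used here do not record its harvest time. Both grew in 10% serum with IL-3 at 6 ng/ml, IL-6 at 10 ng/ml and SCF at 20 ng/ml, and both carried the IDH1 mutant, so RNA and ChIP-seq had no wild-type cells. IDH1 wild-type cells enter only through 1 list of MeDIP regions, from enrichment of methylated DNA. The labels give neither the promoter of the vector nor whether the cells were a clone or a pool. Each assay had 1 library per group, so no p-value was calculated, and each difference is one between 2 libraries.

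The RNA tables summed to 111453443 counts with vitamin C and 86804487 untreated. All 8 markers of myeloid progenitors, Hoxa9 among them, reached 1 RPKM, with summed levels of 3148 RPKM with vitamin C and 6627 RPKM untreated. Most of these sums came from Hoxa9 (1487 RPKM with vitamin C and 3062 RPKM untreated) and Ctsg (1136 RPKM with vitamin C and 2101 RPKM untreated). As the cells were immortalized with HOXA9, Hoxa9 is not an independent marker here. All 5 of mast cells and basophils reached 1 RPKM in 1 or both libraries, with sums of 2790 RPKM with vitamin C and 2065 RPKM untreated. Most of these sums came from Cpa3 (2488 RPKM with vitamin C and 1863 RPKM untreated). The lowest of the 5 were Cma1 (14.6 RPKM with vitamin C and 0.359 RPKM untreated) and Ms4a2 (5.78 RPKM with vitamin C and 1.23 RPKM untreated). Each of the 5 was higher with vitamin C. The 4 markers each of T cells, erythroid cells and stroma summed to less than 1 RPKM per list in both libraries, and Cd3e, Cd8a, Alas2 and Col1a2 were at 0. Whether these marker differences had a part in the level of Mrpl58 was not tested. In bulk samples, fewer cells of a type and less RNA per cell cannot be told apart.

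The sequence around the start of Mrpl58 is shown because it holds a repeated motif and lies under the histone peaks described further on. The window runs from 250 bases before to 50 bases after the start and was taken from RefSeq, on the plus strand of chromosome 11 of GRCm38.p6 (the assembly also called mm10), chr11:115403502-115403801. The annotated gene spans 115403724 to 115412674, and the start used for the window is base 115403752. Capitals mark the letters CCGGAAG, the core that ETS family factors such as GABP prefer.
Mrpl58: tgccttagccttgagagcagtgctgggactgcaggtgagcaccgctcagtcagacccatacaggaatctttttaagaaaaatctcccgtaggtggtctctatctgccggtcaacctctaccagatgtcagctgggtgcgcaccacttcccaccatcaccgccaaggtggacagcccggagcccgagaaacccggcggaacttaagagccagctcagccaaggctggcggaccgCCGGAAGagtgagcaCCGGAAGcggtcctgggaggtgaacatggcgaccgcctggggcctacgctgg

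The ETS letters occur 2 times in this window, both on the strand of the gene, from -17 to -11 and from -2 to 4, counted with 0 at the start base. Of 8121 tested genes with a window, 4.43% held 2 or more matches on either strand, and 22.4% held at least 1. In all 32851 windows of the table the share with at least 1 was 8.86%. None of the other letters searched on both strands was found in the Mrpl58 window, and so no match overlapped another. These were GCATGCGC (the core of NRF1, a regulator of nuclear genes for mitochondria), AAGATGGC (YY1), CACGTG (E-box), GGGCGG (SP1), CCAAT and TATAAA. Among genes tested their shares were 6.54%, 5.84%, 12.3%, 69.8%, 43.9% and 7.99%, in that order, and among all 32851 windows 2.71%, 2.75%, 7.15%, 35.7%, 37.4% and 13.6%. The GC content of the window was 60.7%, equal to the median of the windows of tested genes, and its 17 CpG were fewer than in 60.4% of those windows.

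Of the 69 Mrpl and Mrps genes with a window, 5 held the ETS letters 2 times, which is 7.25% of them. The other 4 are shown for comparison, as the 150 bases that end 50 bases after the start, with CCGGAAG and its complement CTTCCGG in capitals. Mrpl53 lies on the plus strand of chromosome 6 (chr6:83109008-83109157), Mrpl52 on the plus strand of chromosome 14 (chr14:54426809-54426958), Mrps16 on the minus strand of chromosome 14 (chr14:20393441-20393590) and Mrpl43 on the minus strand of chromosome 19 (chr19:45006393-45006542). Mrps16 has a further window without the letters.
Mrpl53: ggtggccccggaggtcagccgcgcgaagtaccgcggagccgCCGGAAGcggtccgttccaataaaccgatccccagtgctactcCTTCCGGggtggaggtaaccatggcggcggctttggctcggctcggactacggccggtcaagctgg
Mrpl52: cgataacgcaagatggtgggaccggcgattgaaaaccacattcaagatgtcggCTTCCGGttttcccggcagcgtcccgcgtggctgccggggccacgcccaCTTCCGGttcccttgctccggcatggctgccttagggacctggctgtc
Mrps16: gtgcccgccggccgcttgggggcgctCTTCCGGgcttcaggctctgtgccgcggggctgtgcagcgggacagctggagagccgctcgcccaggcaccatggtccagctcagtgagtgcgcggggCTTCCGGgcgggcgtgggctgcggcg
Mrpl43: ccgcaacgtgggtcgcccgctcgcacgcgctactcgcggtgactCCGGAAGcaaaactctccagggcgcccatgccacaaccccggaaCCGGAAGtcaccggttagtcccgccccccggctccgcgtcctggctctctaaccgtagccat

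The matches sit at -59 and -16 in Mrpl53, -47 and 2 in Mrpl52, -74 and 24 in Mrps16, and -56 and -12 in Mrpl43, given by their first base. At -17 and -2, the matches of Mrpl58 are the nearest to each other of the 5 genes. At least 1 match stood in 26 of the 69 genes, 37.7%, against 22.4% of genes tested. The NRF1 core stood in 8 of them, 11.6% against 6.54%, and the YY1 letters in 12, 17.4% against 5.84%, while Mrpl58 held neither. Shares below those of genes tested were found for GGGCGG (34 genes, 49.3% against 69.8%) and CACGTG (5, 7.25% against 12.3%). The same held for CCAAT (27, 39.1% against 43.9%) and TATAAA (5, 7.25% against 7.99%). Genes tested had 1 RPKM or more in 1 or both libraries, a limit not set for the 69 genes. A match describes letters in a window, and binding of these factors was not measured.

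Mrpl58 (ENSMUSG00000018858) had 5.91 RPKM (1831 reads) with vitamin C and 7.91 RPKM (1917 reads) untreated. With vitamin C its level was 25.3% lower, a ratio of 0.747 with an exact 95% interval of 0.701 to 0.797 that covers counting error only. On the scale of log2 of RPKM plus 0.5, which understates changes of low genes, the difference was -0.39. Both libraries gave Mrpl58 a low level among tested genes: 23.8% of them were lower with vitamin C and 29.7% untreated. The gene was on neither of the lists of higher or lower genes in the authors' deposited tables, of 450 and 221 genes.

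Genes were counted past 2-fold, and past a smaller limit of 20% lower or 25% higher, both for RPKM plus 0.5. Mrpl58 was not past 2-fold in either direction, where 1.92% of the 10436 genes tested were lower and 2.38% were higher. It was past the smaller limit on the lower side, as were 18.8% of all genes tested, while 14.8% were 25% or more higher. Among all genes tested 14.3% had a more negative log2 change than Mrpl58, and their median was -0.04. A difference of this size was common between these libraries and does not set Mrpl58 apart.

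5 other subunits of the mitochondrial ribosome, which carry symbols of another kind, were measured in the same libraries. Dap3, a GTP-binding protein of the small subunit, had 13.8 RPKM with vitamin C and 17.3 RPKM untreated, a ratio of 0.795 (0.770 to 0.821). Aurkaip1, of the small subunit, had 32.1 RPKM with vitamin C and 39.4 RPKM untreated, a ratio of 0.815 (0.784 to 0.847). Gadd45gip1, which like Mrpl58 belongs to the large subunit, had 32.8 RPKM with vitamin C and 39.3 RPKM untreated, a ratio of 0.835 (0.808 to 0.863). All 3 were lower with vitamin C but not past the smaller limit. Dap3 came nearest, at 20.5% lower in RPKM and within the limit once 0.5 RPKM was added.

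The other subunits of the group were nearly level between the libraries. Ptcd3, an RNA-binding protein of the small subunit, had 63.0 RPKM with vitamin C and 62.5 RPKM untreated, a ratio of 1.01 (0.984 to 1.03). Chchd1, of the small subunit, had 52.0 RPKM with vitamin C and 52.9 RPKM untreated, a ratio of 0.982 (0.929 to 1.04). Its log2 change of -0.03 became 0.02 when centred on the median of all genes tested. Mrpl58 had the lowest ratio of the 6 subunits, and its interval overlapped those of Dap3 and Aurkaip1 but not those of the other 3. The median log2 change of these 5 genes was -0.26, with 0 of 5 past the smaller limit in either direction, and 4 of 5 were below 0.

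Mrpl58 also had the lowest level of the 6 in both libraries, and Dap3 was next. The interval of Mrpl58 was 5.64 to 6.19 RPKM with vitamin C and 7.56 to 8.28 RPKM untreated, against 13.5 to 14.1 and 16.9 to 17.7 RPKM for Dap3. In both libraries the intervals of Aurkaip1 and Gadd45gip1 overlapped, so their order was not resolved. Chchd1 and Ptcd3 were the highest, with intervals that did not overlap. These intervals cover counting error only. The order of different genes by RPKM also depends on the gene lengths used, from an annotation that was not stated.

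**Figure D1:**
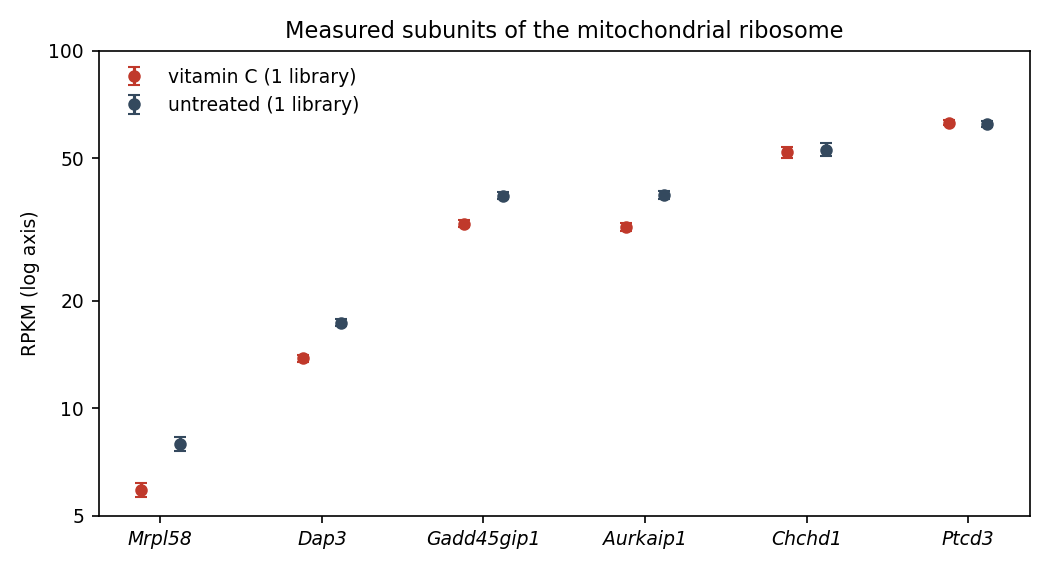
RPKM (log axis) of Mrpl58 and 5 other measured subunits of the mitochondrial ribosome in the vitamin C library and the untreated library; points are single libraries and bars are exact 95% Poisson intervals of the reads, for counting error only. Mrpl58 is lowest in both libraries, at 5.91 RPKM with vitamin C and 7.91 RPKM untreated, and Ptcd3 and Chchd1 are nearly level.

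Lists of other genes of mitochondrial gene expression were set beside Mrpl58. Of 115 measured genes on 8 lists, 89 (77.4%) had a log2 change below 0, against 55.2% of all genes tested, and 21 were more negative than Mrpl58. None was past 2-fold for RPKM plus 0.5, where 1.92% of all genes tested were lower and 2.38% were higher. Past the smaller limit, 30 (26.1%) were lower, against 18.8% of all genes tested, and 4 (3.48%) were higher, against 14.8%. The genes share the same 2 libraries and are not independent, so these counts and those of each list, several of which lie near the shares of all genes tested, are descriptions only.

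The genes for ribosome assembly and rRNA modification had a median log2 change of -0.21. Past the smaller limit, 6 of 24 (25%) were lower and 1 was higher, against 18.8% and 14.8% of all genes tested. All 6 lower genes were more negative than Mrpl58. Among them were the ribose methyltransferase genes Mrm1, Mrm2 and Mrm3, whose products modify the large rRNA. Mrm1 had 4.94 RPKM with vitamin C and 8.73 RPKM untreated, a ratio of 0.566 (0.526 to 0.607). Mrm2 had 5.47 RPKM with vitamin C and 9.50 RPKM untreated, a ratio of 0.576 (0.523 to 0.634), and Mrm3 had 5.16 RPKM with vitamin C and 8.37 RPKM untreated. The gene on the other side was Tfb1m, which dimethylates the small rRNA, with 16.3 RPKM with vitamin C and 10.3 RPKM untreated, a ratio of 1.58 (1.46 to 1.70).

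Translation factors, the partners of Mrpl58 on the ribosome, had a median of -0.11. Of all genes tested 18.8% were past the smaller limit on the lower side and 14.8% on the higher side. In this list 1 of 11 (9.09%) was past it on the lower side and 0 on the higher side. That gene was the initiation factor Mtif3, at 3.45 RPKM with vitamin C and 5.00 RPKM untreated, a log2 change of -0.48. Mtrf1l, a release factor that reads stop codons, stood at 5.31 RPKM with vitamin C and 6.75 RPKM untreated, a ratio of 0.787 (0.734 to 0.844) whose interval overlapped that of Mrpl58. Gfm2, which helps to split ribosomes after translation, had 4.69 RPKM with vitamin C and 5.40 RPKM untreated. Tufm, the elongation factor that delivers tRNA, had 51.4 RPKM with vitamin C and 43.3 RPKM untreated, a log2 change of 0.24.

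The list of mitochondrial DNA maintenance and transcription had the lowest median, -0.33, still above the -0.39 of Mrpl58. All 14 of its genes had a log2 change below 0, against 55.2% of all genes tested. Of the 14, 7 (50.0%) were past the smaller limit on the lower side, against 18.8% of all genes tested. More negative than Mrpl58 were 5 of the 14, against 14.3% of all genes tested. Polg2, the accessory subunit of the mitochondrial DNA polymerase, had 1.16 RPKM with vitamin C and 2.34 RPKM untreated, a ratio of 0.494 (0.439 to 0.555) that was past 2-fold in RPKM and within it once 0.5 RPKM was added. Polg, its catalytic subunit, had 12.3 RPKM with vitamin C and 17.9 RPKM untreated. Mterf2 had 3.19 RPKM with vitamin C and 5.14 RPKM untreated, and the helicase gene Twnk had 12.7 RPKM with vitamin C and 17.3 RPKM untreated. The 13 proteins encoded by mitochondrial DNA, which these ribosomes make, were not analysed here.

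Mitochondrial aminoacyl-tRNA synthetases, which charge the tRNAs, had a median of -0.09, with 4 of 19 genes (21.1%) past the smaller limit on the lower side and 2 (10.5%) on the higher side, near the 18.8% and 14.8% of all genes tested. Pars2 had a log2 change of -0.59, Sars2 of -0.55, Tars2 of -0.41 and Nars2 of 0.49. The regulators had a median of -0.13, with 2 of 10 (20.0%) lower, near the share of all genes tested, and 0 higher, led by the coactivator genes Ppargc1b at -0.74 and Pprc1 at -0.36, while Myc stood at -0.30 and Esrra at -0.22. Import genes, whose products bring Mrpl58 and its partners into the organelle, had a median of -0.13, with 6 of 20 (30.0%) lower and 0 higher. Among them Timm10 was at -0.56, Timm17b and Timm44 both at -0.41 and Timm22 at -0.37. Chaperones and proteases had a median of -0.02, which became 0.02 when centred on the median of all genes tested, with 4 of 12 (33.3%) lower and 1 higher. Among them Trap1 was at -0.52, Spg7 at -0.43, Phb at -0.35 and the protease gene Lonp1 at 0.47.

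**Figure D2:**
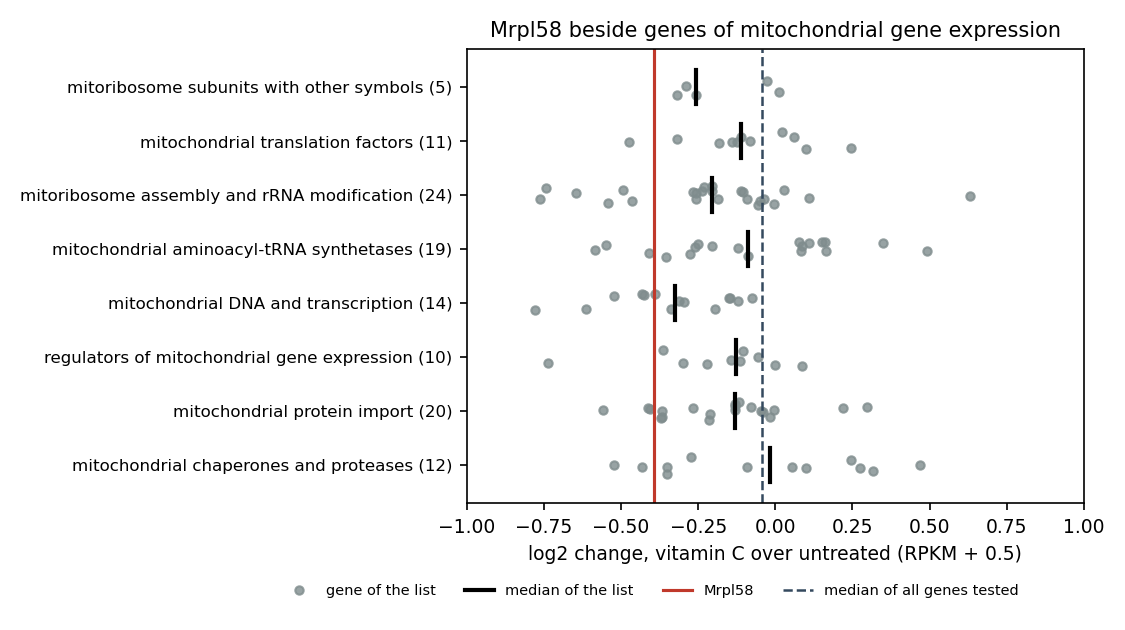
Log2 change, vitamin C over untreated, of each measured gene (points) on 8 lists of mitochondrial gene expression, with the median of each list (black bars), Mrpl58 (red line, -0.39) and the median of all genes tested (dashed line, -0.04); the number of measured genes stands in parentheses. Vertical scatter within a list carries no value. The lists lie between -0.78 (Polg2) and 0.63 (Tfb1m), within 2-fold on this scale, which adds 0.5 RPKM; without it the ratio of Polg2 was 0.494.

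Chromatin at Mrpl58 was read from peak lists that the authors called in each library. A peak counted at a gene when it lay within 1 kb of its start. H3K4me3, a mark of promoters, had a peak over the start of Mrpl58 in both libraries, from -630 to 1158 bases with vitamin C and from -474 to 1112 untreated. Such a peak stood at the start of 96.4% of the 8121 genes tested in the vitamin C list and of 96.4% in the untreated list, so its presence says little about Mrpl58. The p- or q-value that the authors gave this peak was 7.03e-84 with vitamin C, weaker than 16.8% of the 48385 peaks of that list, and 2.00e-80 untreated, weaker than 20.1% of 45713 peaks.

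H3K27ac, which marks promoters and enhancers in use, likewise had a peak over the start, from -285 to 717 bases with vitamin C and from -243 to 626 untreated. Such a peak stood at 90.8% of genes tested with vitamin C and at 91.5% untreated. In rank, 40.8% of the 35970 vitamin C peaks and 34.3% of the 36953 untreated peaks were stronger. The lists differ in length, so these ranks place the peak within each list and show no change between them.

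Marks of both kinds also lay inside the gene. An H3K4me3 peak ran from 4328 to 5228 bases after the start with vitamin C and from 4208 to 5308 untreated, and H3K27ac peaks ran from 4164 to 5515 with vitamin C and from 4332 to 5382 untreated. A broader pair of peaks covered the 3′ end of Mrpl58 and 3 tRNA genes just beyond it, n-TRcct5, n-TRcct3 and n-TRtcg4, which lie 9229 to 10099 bases after the start. There the H3K4me3 peak was 3067 bp wide with vitamin C and 3217 bp untreated, while the peak at the start of the gene was 1789 bp wide with vitamin C and 1587 bp untreated. The H3K27ac peak at this place ranked higher in its lists than the one over the start of Mrpl58, with 5.59% of peaks stronger with vitamin C and 11.3% untreated.

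H3K4me1, a mark of enhancers and promoter flanks, was listed near the start in the vitamin C library only, from -731 to -264 bases. That peak was a weak one, as 70.3% of the vitamin C peaks were stronger, and its value was 2.57e-07. It lay outside a window of 250 bp around the start and was weaker than the median of its list. In the untreated list no H3K4me1 peak lay within 1 kb of the start. Of genes tested 47.0% had such a peak with vitamin C and 57.8% untreated.

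PU.1, an ETS family factor of myeloid cells, had a peak just after the start in both libraries, from 187 to 460 bases with vitamin C and from 178 to 411 untreated. Both begin after the last ETS letters of the Mrpl58 window, which end at base 4, and after the end of the window itself. No letters chosen for PU.1 were searched, so these positions do not show whether the window holds a PU.1 site. The authors' score was 3.12 with vitamin C, where 87.1% of 23522 peaks scored higher, and 7.62 untreated, where 53.8% of 61611 peaks scored higher. Of genes tested 20.0% had a PU.1 peak with vitamin C and 43.9% untreated. A further PU.1 peak, from 9407 to 9600 bases after the start and across part of the tRNA gene n-TRcct3, was listed in the untreated library only, with a score of 4.01. For Runx1, a blood cell transcription factor, no peak was listed within 1 kb of the start in either library, while 47.8% of genes tested had one with vitamin C and 27.6% untreated.

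**Figure D3:**
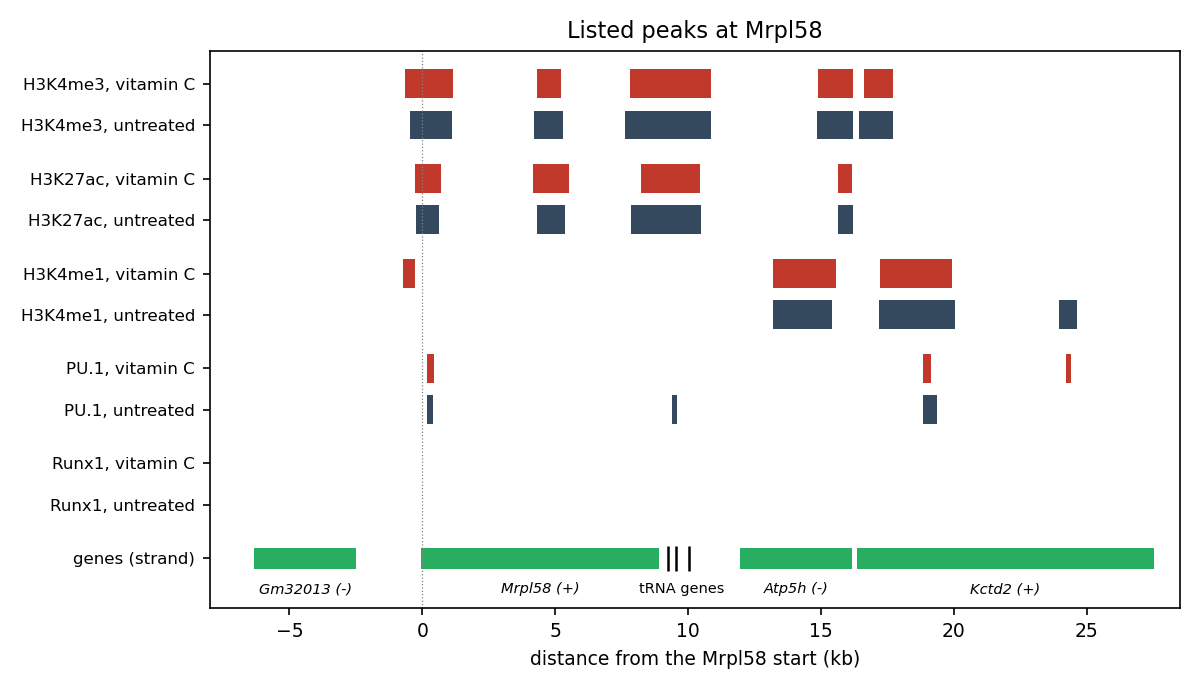
Listed peaks (bars) of H3K4me3, H3K27ac, H3K4me1, PU.1 and Runx1 in the vitamin C library (red) and the untreated library (dark blue) by distance from the Mrpl58 start in kb, with gene spans in green and tRNA genes as black ticks. H3K4me3 and H3K27ac bars lie over the start, inside the gene and over its 3′ end in both libraries, and the H3K4me1 bar at the start is in the vitamin C row only.

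The starts of the 69 Mrpl and Mrps genes gave Mrpl58 its family background. The family was taken by symbol with no limit on RNA level, while genes tested had 1 RPKM or more in 1 or both libraries. The 2 sets are therefore not matched for RNA level. The family includes Mrps36, which belongs to neither subunit of the ribosome. Mrpl46 and Mrps11 had the same peak value in each histone list and were counted as separate genes. All 69 had an H3K4me3 peak and an H3K27ac peak in both libraries. Of all genes tested, 96.3% had an H3K4me3 peak in both lists and 90.1% an H3K27ac peak in both. By the authors' value, the H3K4me3 peak of Mrpl58 was number 57 of 69 from the strongest with vitamin C and number 61 of 69 untreated, so it stood among the weaker ones of the family. The median of the family had 8.85% of the list stronger with vitamin C and 8.86% untreated. For H3K27ac, Mrpl58 was number 42 of 69 with vitamin C and number 33 of 69 untreated, near the middle, and the strongest was Mrps18b in both lists.

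A PU.1 peak was listed at 9 family starts with vitamin C, which is 13.0%, and at 24 untreated, 34.8%. Those with vitamin C were all among the 24: Mrpl58, Mrpl33, Mrpl52, Mrpl55, Mrps16, Mrps18a, Mrps18b, Mrps18c and Mrps33. Of all genes tested 19.3% had a PU.1 peak in both lists and 24.6% in the untreated list only. Only 0.739% had it in the vitamin C list only, so its absence from the family was the common case. By score Mrpl58 was number 8 of 9 with vitamin C and shared place 12 of 24 untreated with Mrpl35 and Mrps18a, and Mrps33 had the top score of the family in both lists, 17.7 with vitamin C and 46.7 untreated. The vitamin C list of PU.1 peaks is shorter as a whole, and of all genes tested 20.0% had such a peak with vitamin C and 43.9% untreated. Both family shares were below those of all genes tested. Among peaks above the median score of their list, the family counts were 4 with vitamin C and 11 untreated, and within 5 kb there were 16 with vitamin C. Shares of all genes tested were not calculated at these other limits, so these counts have no background.

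An H3K4me1 peak was listed at 35 family starts with vitamin C, 50.7%, and at 48 untreated, 69.6%, against 47.0% with vitamin C and 57.8% untreated for all genes tested. These counts depend on the limits: within 250 bp they were 6 with vitamin C and 19 untreated, and among peaks stronger than the list's median 15 with vitamin C and 25 untreated. At these limits shares of all genes tested were not calculated. Mrpl58 was 1 of 7 genes with the peak in the vitamin C list only, beside Mrpl9, Mrpl14, Mrpl21, Mrpl40, Mrpl41 and Mrpl45, while 20 had it in the untreated list only. As shares these were 10.1% and 29.0% of the family, against 16.1% and 26.9% of all genes tested. Runx1 peaks were listed at 27 family starts (39.1%) with vitamin C and at 18 (26.1%) untreated, against 47.8% with vitamin C and 27.6% untreated for all genes tested. With vitamin C the family count was 15 among peaks above the median score, a limit at which all genes tested were not counted. Mrpl58 was among the 41 family genes (59.4%) with no Runx1 peak in either list, as were 51.3% of all genes tested.

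**Figure D4:**
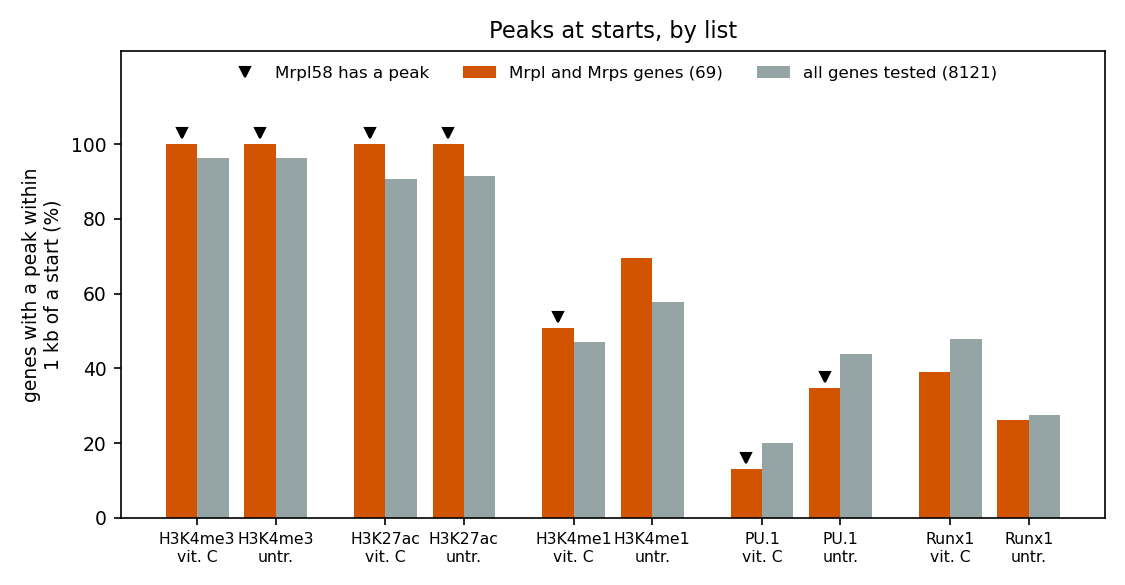
Percent of genes with a listed peak within 1 kb of a start, for the 69 Mrpl and Mrps genes with a promoter window (orange) and 8121 genes tested (grey), for vitamin C and untreated lists; black triangles mark lists in which Mrpl58 has a peak. H3K4me3 and H3K27ac reach 100% of the family in both lists, and PU.1 reaches 13.0% with vitamin C and 34.8% untreated.

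No listed region of differential methylation or hydroxymethylation touched Mrpl58 or lay within 2 kb of its start. Among genes tested, such a region was present for 6.74% in the MeDIP iMR list, 13.0% in the MeDIP deMR list, 12.8% in the list of mutant MeDIP regions, 17.6% in the hMeDIP iHR list, 17.6% in the WGBS deMR list and 6.12% in the WGBS iMR list. Since most genes had none, the lack of one at Mrpl58 was the common case. The tags are the authors' own, and the region files hold positions with no direction or size of a methylation difference. The nearest region was a MeDIP deMR 15327 bp beyond the 3′ end, at 115428001 to 115428500.

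The nearest protein-coding genes downstream of Mrpl58 were past the smaller limit on the lower side, as were 18.8% of all genes tested. Of all genes tested 55.2% had a log2 change below 0. These neighbours were picked with their values in view. Atp5h, a subunit of the mitochondrial ATP synthase, had 61.2 RPKM with vitamin C and 87.2 RPKM untreated, a ratio of 0.702 (0.681 to 0.723). Kctd2, which starts beside Atp5h on the other strand, had 5.73 RPKM with vitamin C and 8.91 RPKM untreated, a ratio of 0.643 (0.601 to 0.687). Upstream, the nearest protein-coding gene Cdr2l had 0 reads in both libraries. The ratio interval of Mrpl58 overlapped that of Atp5h and lay above that of Kctd2.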

How the data were processed

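The 2 RNA libraries, 10 peak lists and 6 lists of methylation regions were used. The RNA tables have no named columns; the values taken are whole-number read counts and RPKM per gene, as the authors deposited them, and 3 other unnamed columns were not used. Histone peaks carry the p-value or q-value that the authors deposited, without saying which, and PU.1 and Runx1 peaks carry a score whose meaning the deposited lists do not state. Region lists hold positions only. Tools named in the submitters' processing notes, without their roles, were BWA, Novoalign 3.02.08, CASAVA 1.8.2, MACS2 2.1.0.2, Picard and SAMtools (0.1.16, 0.1.8 and 0.1.2), and the build was mm10. No aligner, counter or gene annotation for the RNA tables was stated. RNA libraries were strand-specific, per the labels' protocols.

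Symbols were found for 21611 of 22371 gene IDs. Genes with 1 RPKM or more in 1 or both libraries were tested, and the log2 change was that of RPKM plus 0.5, vitamin C over untreated. With 1 library per group there was no test. RPKM ratios have exact binomial intervals of the reads, scaled by 1.28, the reads per RPKM with vitamin C over untreated, and levels have exact Poisson intervals, both at 95% and for counting error only. The interval script was tested on simulated data. Some genes had an RPKM above 0 beside 0 reads, 45 with vitamin C and 36 untreated. The depth behind peaks and regions was unknown. Repeated intervals were removed from the PU.1 list (259 with vitamin C and 1159 untreated) and the Runx1 list (337 with vitamin C and 139 untreated). Starts in the peak and WGBS lists were taken as counted from 0 and are given from 1. Promoter windows and gene spans are those of RefSeq for GRCm38.p6, matched by symbol, for 8121 tested genes. Python 3.11.15, pandas 2.3.3 and SciPy 1.17.1 were used.

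Members and lists were chosen with earlier results of these data known. The names given are Mrpl58, the measured subunits with other symbols and, per list, the 4 genes with the greatest absolute log2 change. Genes next to Mrpl58, family members named for their peaks and the other promoters with 2 ETS matches fall outside that rule and were picked with their values in view. With 1 member, planned summaries by subunit and class were not made, and protein sequences were not analysed. A further list of cell type markers is not reported here. Alternatives were other pseudocounts, filters and scalings, other peak distances and strengths, and the 150 bases nearest the gene as the motif window.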

Additional observations from a re-analysis of the deposited data

How the results depend on the processing

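No paired analysis was possible because each group had 1 library and the labels give no shared replicate numbers. The log2 change of Mrpl58 stayed negative and past the limit of 20% lower under every alternative run, from -0.42 (CPM in place of RPKM, or no pseudocount, the second chosen after seeing the data) to -0.35 (centred on the median of all genes tested), and was -0.41 and -0.37 with pseudocounts of 0.1 and 1 RPKM. Dap3 passed the limit of 20% lower with a pseudocount of 0.1 RPKM (-0.33) and on CPM (-0.34), in place of -0.32. Centred on the median of all genes tested, Dap3 was further from the limit, at -0.28. Ptcd3 was 0.05 when centred in this way, in place of 0.01. Filters of 5 RPKM or none left the value of Mrpl58 as it was. Without a filter the share of all genes past the smaller limit was 10.2% on the lower and 7.86% on the higher side, in place of 18.8% and 14.8%. Near the start of Mrpl58 the number of vitamin C H3K4me1 peaks became 0 within 250 bp and among peaks stronger than the list's median, and PU.1 became 0 among peaks above the median score of both lists. Family counts that moved by more than 1.5 times were, for H3K4me1, 6 with vitamin C and 19 untreated within 250 bp, and 15 with vitamin C and 25 untreated among peaks above the median, in place of 35 with vitamin C and 48 untreated. For PU.1 they were 4 with vitamin C and 11 untreated above the median and 16 with vitamin C within 5 kb, in place of 9 with vitamin C and 24 untreated, and for Runx1 with vitamin C 15 above the median in place of 27. Under a stricter strength limit or a narrower window, fewer peaks or bases were counted by construction. All genes tested were not counted at these other peak limits. No other result on Mrpl58 changed. With 1 library per group, variation between cultures was not measured.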

Other observations

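A locus in the span of Kctd2, downstream of Mrpl58, differed between the PU.1 lists and between the H3K4me1 lists. A PU.1 peak at 115427955 to 115428162 on chromosome 11 was in the vitamin C list only (score 4.55). It was a weak peak, as 72.6% of that list scored higher. An H3K4me1 peak at 115427710 to 115428370 was in the untreated list only (value 2.30e-13, with 39.2% of that list stronger). The MeDIP deMR at 115428001 to 115428500 overlapped both. The peak lists differ in length, so presence in a single list shows no change between libraries. Nearer to Mrpl58, at 115422600 to 115422893 with vitamin C and 115422590 to 115423100 untreated, a PU.1 peak was in both lists, with scores of 19.1 with vitamin C and 48.4 untreated. These places were picked after their values were seen.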
